A study of Mus musculus with 12 samples.

Results

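T cells from tumors of mice given both ANT008 and anti-PD-1 were compared with T cells from control mice over the 143 genes that could be read in every mouse of both groups. The genes were chosen by 1 rule: an endogenous gene of the nCounter Mouse Metabolic Pathways panel was taken if its raw count lay above the background of the lane, the mean plus 2 SD of the 8 negative control probes, in all 6 lanes compared. That rule kept 143 of 748 endogenous genes. The groups were Scram+IgG, which received a scrambled peptide and isotype-matched IgG, and ANT008+aPD-1, which received ANT008, a peptide antagonist of the receptors for vasoactive intestinal peptide (VIP), and an anti-PD-1 antibody. Both were female C57BL/6 mice 8 to 10 weeks old carrying subcutaneous KPC.Luc tumors, which grow from 1 luciferase-bearing mouse pancreatic cancer line. Peptide was given daily at 10 µg and antibody at 200 µg every 3 days for 10 days, from 6 to 7 days after implantation. The other arms, ANT008+IgG and Scram+aPD-1, also had 3 mice each, and all 12 lanes entered the fit. T cells were drawn from each tumor with CD90.2 magnetic beads to a stated purity of 80 to 85%, so other cells of the tumor were present in every sample.

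VIP is a neuropeptide that acts on T cells through G protein-coupled receptors and raises cyclic AMP, which restrains T cell activation. PD-1 is an inhibitory receptor that recruits phosphatases to the T cell receptor and to the co-stimulatory receptor CD28. Activated T cells are known to take up more glucose and amino acids and to raise glycolysis, mitochondrial respiration and one-carbon metabolism, with PI3K, mTOR, Myc and Hif1a as the main regulators of that program, and the panel was built around these pathways.

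Depth set what could be read. The endogenous total was 1388586, 256703 and 1486646 counts in Scram+IgG mice 1 to 3, and 5776, 268678 and 24813 counts in ANT008+aPD-1 mice 1 to 3. Above background were 629, 571 and 648 genes in the control lanes and 156, 580 and 357 in the combination lanes. All 3 control lanes held 569 genes above background, among them every one of the 143 that all 3 combination lanes held, so that the combination lanes alone set the membership. ANT008+aPD-1 mouse 1 by itself removed 210 genes that passed in the other 5 lanes. Just inside the threshold were Cops6, Kmt2d and Nup62, at 10 counts against a background of 9.94 in ANT008+aPD-1 mouse 1. Just outside were Pemt, Trat1 and Slc2a1, at 12 counts against 12.4 in ANT008+aPD-1 mouse 3. A gene with few transcripts could enter only if it was high enough in the shallow combination lanes, and counts, medians and shares over the 143 genes are therefore descriptions and no evidence of direction. The deposited table flags 2 lanes without saying why, Scram+IgG mouse 1 and, among the single-agent mice, ANT008+IgG mouse 1, and both entered the fit.

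**Figure D1:**
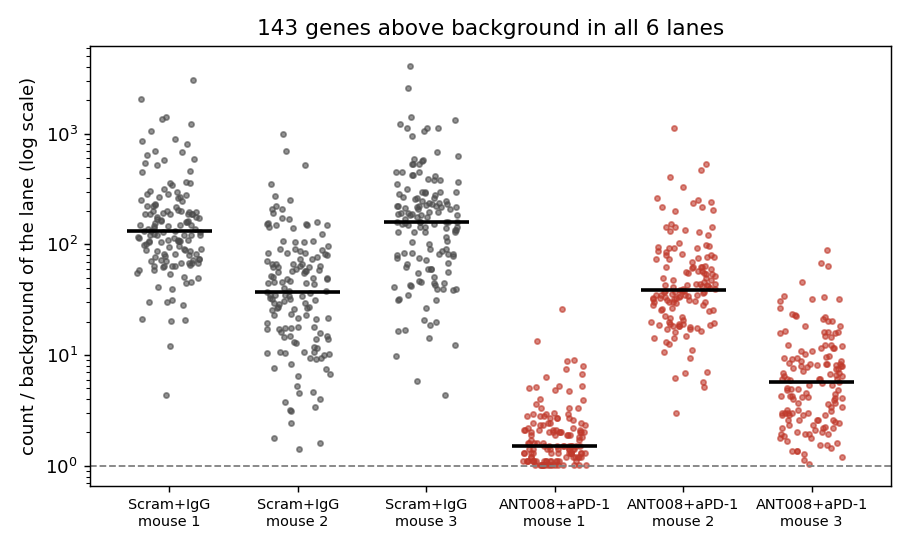
Raw count of each of the 143 genes divided by the background of its lane (log scale), with 1 column of points for each of the 6 mice and a bar at the median of the genes; the dashed line is the background. The median gene stood at 131, 37.4 and 160 times background in the Scram+IgG lanes and at 1.51, 38.4 and 5.72 times background in the ANT008+aPD-1 lanes.

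Counts were divided by the size of the lane, taken from the housekeeping genes Dnajc14, Oaz1 and Ubb, and are given below as scaled counts. The same background count became a scaled count of 358 in ANT008+aPD-1 mouse 1 and of 149 in mouse 3, against 3.81 to 15.5 in the control lanes and 13.8 in ANT008+aPD-1 mouse 2. As the plot of counts over background shows, 87 of the 143 genes in ANT008+aPD-1 mouse 1 and 19 in mouse 3 stood below 2 times the background of the lane. For 23 genes, all 3 control values lay below the scaled background of ANT008+aPD-1 mouse 1. Dck, Slc25a1, Ndufa12 and Bub1b, described below, are among them, so the membership rule held that mouse above their controls. The sum of 9 T cell markers, which include Cd3d, Cd3e, Cd3g and Lck, was 4906, 1195 and 1015 in the control mice and 4613, 3865 and 6474 in the combination mice. The sum of 10 myeloid markers was 4803, 1149 and 1888 against 4794, 5779 and 8110. In combination mouse 1 only 3 of these 10 and 7 of the 9 T cell markers stood above background, all of them among the 143 genes. Counts at background level therefore enter both sums in that mouse. None of the 3 B cell markers stood above background in any combination lane. In RNA from sorted bulk cells, fewer cells of a type and less RNA per cell cannot be told apart.

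Across the 143 genes no single gene differed between ANT008+aPD-1 and Scram+IgG at the FDR of 0.1. Genes of the T cell receptor and of T cell killing lay above 0 on the log2 scale, most glycolytic enzymes and respiratory chain subunits lay slightly below 0, and the highest fold change after the cytokine gene Lta was that of Cd14, a co-receptor for bacterial lipopolysaccharide. The count of genes at an FDR below 0.1 by edgeR's quasi-likelihood test was 0 higher and 0 lower, as it was over all 640 tested genes (0.0% in either direction). At an unadjusted p below 0.05, 10 of the 143 genes were higher, or 6.99%, against 9.38% of all tested genes, and 2 were lower, or 1.4%, against 3.44%. The median log2 fold change was 0.09 for the 143 genes and 0.12 for all tested genes. The fitted value was above 0 for 82 genes, 57.3% against 56.7% of all tested genes, and below 0 for 61, 42.7% against 43.3%. Within 1.5-fold of the controls were 90 of the 143 genes, 17 were more than 2-fold higher and 3 more than 2-fold lower. These fold counts were not made over all tested genes. The membership rule also cut off low values in the shallow combination lanes, so the 17 against 3 give no direction. The direction of small values depended on the scaling: 77 genes lay below 0 with TMM scaling and 87 when lanes were scaled by the 143 genes themselves, and these scalings moved the median of all tested genes to -0.03 and -0.19.

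All 3 combination mice lay above all 3 controls for 8 of the 143 genes, or 5.59%, against 7.81% of the tested genes. They were Cd14, Cd28, Ptgs2, Gzma, Tnf, Vegfa, Nfe2l2 and Odc1. For Cd14, Ptgs2, Tnf, Vegfa and Nfe2l2, 5 of the 8, every control lay below the scaled background of ANT008+aPD-1 mouse 1, so that the membership rule itself placed that mouse above the controls. For Cd28, Gzma and Odc1, not every control lay below that background. For Cd28, though, control mice 2 and 3 did, and for Gzma control mouse 2 did, at 335. The rule also placed combination mouse 1 above those controls. Only for Odc1 did no control lie below it. All 3 lay below the controls for 7 genes, or 4.9%, against 5.78% of the tested genes. They included Hk1, Glud1, Psma7, Uqcr10 and Cops6. The share of the 143 genes was below the share of all tested genes in both directions.

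**Figure D2:**
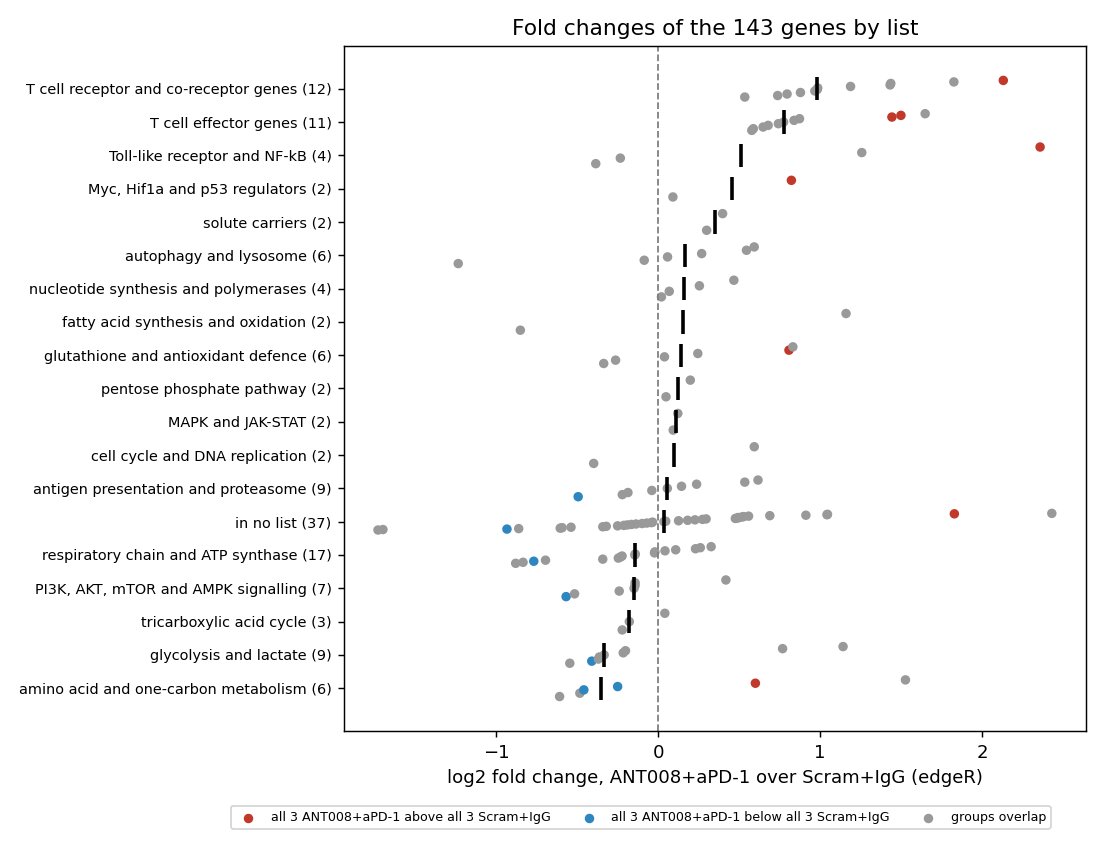
Fitted log2 fold change of ANT008+aPD-1 over Scram+IgG for each of the 143 genes, in rows by gene list with the number of genes in brackets; the bar is the median of the list, red and blue points are genes whose 6 mice did not overlap and grey points are the rest. The 23 genes of the first 2 rows all lie above 0, and the medians of the other lists lie between -0.35 and 0.51. For 4 of the 12 receptor genes and 1 of the 11 effector genes, the membership rule held ANT008+aPD-1 mouse 1 above all controls. For others, such as Cd28 and Ccl4, it held that mouse above control mice 2 and 3.

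Glycolysis splits glucose into pyruvate, which lactate dehydrogenase reduces to lactate, and activated T cells use this route even in the presence of oxygen. Of the 32 genes of the glycolysis and lactate list on the panel, 9 were among the 143. No glycolytic gene passed the test. Hk3 and Hk2, isoforms of the hexokinase that starts the pathway, had fitted values above 0, and Ldha, Hk1, Aldoa, Eno1, Pkm, Gapdh and Pfkl below 0, with a median log2 fold change of -0.33 for the list. The same 7 genes against 2 was the split under TMM scaling, under scaling by the 143 genes and after background subtraction.

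Gapdh, the dehydrogenase of glyceraldehyde 3-phosphate, had the highest mean scaled count of this list, with 262 raw counts in the shallowest lane. The 100 bases of the transcript that its probe pair reads are shown because Gapdh has near-copies, whose signal a probe may not tell apart, and the panel carries its paralog Gapdhs. The capitals mark the longest run shared with the Gapdhs target.
Gapdh: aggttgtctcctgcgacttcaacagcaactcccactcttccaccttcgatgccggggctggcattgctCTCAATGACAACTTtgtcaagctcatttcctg
The scaled count of Gapdh was 13556, 15486 and 15609 in control mice 1 to 3 and 9443, 15605 and 13369 in combination mice 1 to 3, the order used for every gene below. The groups overlapped, since combination mouse 2 lay beside the upper controls, while combination mice 1 and 3 lay below them all. The log2 fold change was -0.22 (SE 0.35, FDR 0.819 by edgeR), and it was 0.07 when ANT008+aPD-1 mouse 2 was the only combination lane.

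Hk1, the hexokinase found in most cells, was 541, 546 and 610 in the controls and 469, 484 and 325 with the combination, with every combination mouse below every control. Its log2 fold change was -0.41 (SE 0.30, FDR 0.564 by edgeR). Hk2, the hexokinase that is induced by Hif1a and Myc, was 327, 409 and 516 against 396, 453 and 1263. Only combination mouse 3 stood outside the control range.

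Hk3, a hexokinase that is best known from myeloid cells, was 750, 363 and 710 in the controls and 721, 1037 and 2238 with the combination. It was named for the smallest unadjusted p of the list, at a log2 fold change of 1.14 (SE 0.76, FDR 0.525 by edgeR). Combination mouse 1 lay inside the control range. Ldha, the lactate dehydrogenase subunit of activated lymphocytes and tumors, was 3141, 3938 and 4704 against 1838, 2825 and 3381, and combination mouse 3 overlapped with control mouse 1. Its log2 fold change was -0.55 (SE 0.40, FDR 0.565 by edgeR), the lowest of the list.

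The pentose phosphate pathway had 2 of 7 genes among the 143, Pgd (0.05) and Taldo1 (0.20), and the direction of both changed under scaling by the 143 genes. The tricarboxylic acid cycle had 3 of 20. Idh3g, a regulatory subunit of the NAD-dependent isocitrate dehydrogenase, was 490, 786 and 706 in the controls and 721, 445 and 614 with the combination, for a log2 fold change of -0.18 (SE 0.38, FDR 0.877 by edgeR). Pdha1, the subunit of pyruvate dehydrogenase that feeds the cycle, was 305, 494 and 490 against 469, 240 and 433, for -0.22 (SE 0.37, FDR 0.831 by edgeR). For both genes the combination mice spanned nearly the whole control range. The log2 fold change of Cs, the citrate synthase, was 0.04.

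The respiratory chain passes electrons to oxygen through complexes I to IV, and the ATP synthase uses the resulting proton gradient. The list of these subunits held 17 of 34 genes on the panel among the 143. None passed the test, and 5 lay above 0 and 12 below, with a median log2 fold change of -0.14. All 6 subunits and assembly factors of complex IV (Cox4i1, Cox5a, Cox5b, Cox6a1, Cox7c and Cox14) lay below 0, between -0.83 and -0.02, although Cox4i1 was at 0.04 after background subtraction with the lane size recomputed. In complex I, Ndufa12 and Ndufa1 lay above 0 and Ndufa3, Ndufs7, Ndufa2 and Ndufb7 below.

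That split changed with the scaling and when single lanes were left out. Below 0 were 16 of the 17 genes when lanes were scaled by the 143 genes, 14 with TMM and 10 after background subtraction with the lane size recomputed. Without Scram+IgG mouse 2 it was 7 of 17, and the median became 0.13. The mean log2 scaled count over the 17 genes was 9.43, 10.24 and 9.96 in the control mice and 9.44, 9.15 and 10.25 in the combination mice, so that combination mouse 3 equaled the highest control and mouse 2 lay below all of them.

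Ndufb7, an accessory subunit of complex I, had the lowest fitted value of the list. It was 900, 3271 and 2243 in the controls and 973, 791 and 1721 with the combination, a log2 fold change of -0.88 (SE 0.74, FDR 0.617 by edgeR), with control mouse 1 inside the combination range. Uqcr10, a small subunit of complex III, was 485, 896 and 749 against 396, 417 and 433. It was the only respiratory gene among the 143 whose groups did not overlap, with a log2 fold change of -0.77 (SE 0.40, FDR 0.456 by edgeR). Its count of 11 in ANT008+aPD-1 mouse 1 was close to the background of 9.94. Cox6a1, a subunit of complex IV and the gene of the list with the highest mean scaled count, was 1530, 2310 and 2041 against 1406, 1424 and 2166, for -0.23 (SE 0.42, FDR 0.840 by edgeR). Atp6v1f, a subunit of the vacuolar proton pump that the list also holds, was 359, 232 and 256 against 360, 356 and 349, for 0.33.

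Amino acid and one-carbon metabolism had 6 of 35 genes among the 143, and none passed the test. Arg1 and Odc1, which lead from arginine to polyamines, lay above 0, and Glud1, Psat1 and Mat2a below 0, also under TMM scaling and under scaling by the 143 genes. Arg1, the arginase that splits arginine and a known product of suppressive myeloid cells, was 2052, 537 and 847 in the controls and 1874, 3039 and 4958 with the combination. Control mouse 1 lay above combination mouse 1, and the log2 fold change was 1.53 (SE 0.78, FDR 0.447 by edgeR). Odc1, the ornithine decarboxylase that starts polyamine synthesis from the product of arginase, was 664, 475 and 544 against 685, 864 and 987. The groups did not overlap by the narrow margin between control mouse 1 and combination mouse 1, at a log2 fold change of 0.60 (SE 0.32, FDR 0.458 by edgeR).

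Glud1, the dehydrogenase that carries glutamate on into the tricarboxylic acid cycle, was 743, 1033 and 993 in the controls and 577, 691 and 734 with the combination, for a log2 fold change of -0.46 (SE 0.35, FDR 0.591 by edgeR). Every combination mouse lay below every control mouse. Mat2a, which makes the methyl donor S-adenosylmethionine, had a log2 fold change of -0.61, and Psat1, an enzyme of serine synthesis, of -0.48.

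Nucleotide synthesis had 4 of 36 genes. Dck, the kinase that salvages deoxycytidine, was 305, 281 and 329 against 360, 274 and 638 (0.47, SE 0.45, FDR 0.663 by edgeR). It had 10 raw counts in ANT008+aPD-1 mouse 1 against a background of 9.94, and all its controls lay below that background once scaled. Nme2, a nucleoside diphosphate kinase, was 890, 4217 and 2206 in the controls and 1045, 1203 and 5138 with the combination. Both groups covered the same wide range for Nme2, and its log2 fold change of 0.02 (SE 0.97) changed sign under both other scalings. Fatty acid metabolism had 2 of 21 genes. Fabp5, a fatty acid-binding protein, had a log2 fold change of 1.16 (SE 0.53, FDR 0.376 by edgeR), and Fasn, the fatty acid synthase, one of -0.85 (SE 0.58, FDR 0.544 by edgeR), with overlapping groups for both. The solute carriers had 2 of 19 genes, Slc3a2, the heavy chain of the large amino acid transporters (0.40), and Slc25a1, the mitochondrial citrate carrier (0.30).

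Antioxidant genes had 6 of 19 on the panel. Nfe2l2, the transcription factor NRF2 that drives the antioxidant program, was 140, 160 and 171 in the controls and 396, 198 and 277 with the combination, with every combination mouse above every control. The log2 fold change was 0.81 (SE 0.39, FDR 0.411 by edgeR), from 11 and 23 raw counts in combination mice 1 and 3, and it was 0.33 when mouse 2 was the only combination lane. Its known target Hmox1, the heme oxygenase, was 332, 115 and 176 against 469, 427 and 229, for 0.83 (SE 0.61, FDR 0.567 by edgeR). Txnrd1, a thioredoxin reductase and another known target (-0.26), and Gpx1, a glutathione peroxidase (-0.34), lay below 0. Txn1, the cytosolic thioredoxin, was 2624, 2308 and 2609 against 2271, 2745 and 2719, with overlapping groups and a log2 fold change of 0.04 (SE 0.30, FDR 0.970 by edgeR).

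The PI3K, AKT, mTOR and AMPK list had 7 of 38 genes, 6 of them below 0, with a median log2 fold change of -0.15 and none past the test. Without Scram+IgG mouse 2 the median was 0.07. Akt1, the kinase activated downstream of PI3K, was 585, 1303 and 1001 in the controls and 541, 567 and 902 with the combination. Combination mouse 3 lay inside the control range, and the log2 fold change was -0.52 (SE 0.56, FDR 0.722 by edgeR). Sec13, a subunit of the complex that relays amino acid levels to mTORC1, was 578, 1206 and 907 against 613, 509 and 1312, for -0.14 (SE 0.67, FDR 0.948 by edgeR).

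The regulators that drive T cell metabolism were thinly represented. Hif1a, the oxygen-sensing transcription factor, was 1261, 1152 and 1451 in the controls and 865, 1811 and 1396 with the combination, for a log2 fold change of 0.09. Vegfa, an angiogenic growth factor and a known Hif1a target, was 227, 266 and 344 against 577, 528 and 385, with a log2 fold change of 0.82 (SE 0.43, FDR 0.456 by edgeR). Car9, the tumor-associated carbonic anhydrase and another known Hif1a target, was 362, 940 and 1140 against 396, 490 and 445. Control mouse 1 lay below all combination mice and the other controls above them, for -0.86 (SE 0.70, FDR 0.611 by edgeR). Stat3 (0.12), of the JAK-STAT list, and Cdk9 (-0.40) and Bub1b (0.59), of the cell cycle list, each had overlapping groups.

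Antigen presentation and the proteasome had 9 of 20 genes among the 143, with a median log2 fold change of 0.06 and none past the test. H2-Aa, the alpha chain of MHC class II I-A, which dendritic cells, macrophages and B cells carry, was 9089, 2245 and 4317 in the controls and 3172, 7413 and 4597 with the combination. The combination mice lay inside the control range, at a log2 fold change of -0.04 (SE 0.56, FDR 0.981 by edgeR). Psma7, a subunit of the proteasome core, was 468, 675 and 594 against 360, 417 and 445. Its groups did not overlap, for -0.49 (SE 0.29, FDR 0.468 by edgeR), on 10 counts in ANT008+aPD-1 mouse 1. Of the class I genes, H2-K1 (0.53) and H2-T23 (0.62) lay above 0 and H2-D1 (-0.19) below. In the lysosome list, with 6 of 21 genes, 4 lay above 0 and 2 below. Above were the cathepsins Ctsw (0.59), Ctss (0.55), Ctsz (0.27) and Ctsd (0.06). The lowest was Cd63 (-1.23), the gene of the list with the highest mean scaled count, which is described below.

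Outside the T cell receptor list, the highest fitted values belonged to Lta, Cd14, Ptgs2, Ccl4, Arg1, Gzma and Tnf. None passed the test. Cd14 is displayed by monocytes and macrophages, and was 221, 100 and 149 in the controls and 1009, 551 and 890 with the combination. The lowest combination mouse stood above the highest control, with raw counts of 28, 698 and 74 against backgrounds of 9.94, 17.5 and 12.4. The log2 fold change was 2.36 (SE 0.53, FDR 0.242 by edgeR, n = 3 and 3), the mean scaled count 817 ± 238 (SD) against 156 ± 60.7 (SD), and the value stayed between 2.12 and 2.68 when any 1 mouse was left out. It was 1.81 with ANT008+aPD-1 mouse 2 as the only combination lane and 2.24 after background subtraction. Cd14 passed the FDR of 0.1 under TMM scaling (0.0938), under scaling by the 143 genes (0.0812) and by DESeq2 (5.79e-04). All its controls lay below the scaled background of ANT008+aPD-1 mouse 1, so the membership rule held that mouse above them. These calls are therefore not independent of the rule. Without ANT008+aPD-1 mouse 1 the log2 fold change was 2.19 (FDR 0.581 by edgeR).

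Ptgs2, the inducible cyclooxygenase that makes prostaglandins, was 302, 162 and 312 in the controls and 757, 870 and 1119 with the combination. All combination mice were above all controls, at a log2 fold change of 1.83 (SE 0.84, FDR 0.376 by edgeR). In ANT008+IgG the 3 mice were at 260, 1456 and 281 and in Scram+aPD-1 at 823, 240 and 2672. Mice of the single-agent arms thus reached and passed the combination values.

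Cd14, Arg1 and Cd68 are the myeloid markers among the 143 genes. Cd68, a lysosomal protein of macrophages, was 830, 161 and 286 in the controls and 505, 562 and 806 with the combination. Arg1 and Cd14 make up a large share of the myeloid marker sum given above. The 7 myeloid markers that are not among the 143 genes summed to 1700, 351 and 606 in the controls and to 1406, 1628 and 1456 with the combination, with none of the 7 above background in combination mouse 1. The part of myeloid cells in the values of Cd14, Ptgs2, Arg1 and Hk3 was not tested. The Toll-like receptor and NF-kB list, which holds Cd14, had 4 genes among the 143, with Traf1, an adaptor of the tumor necrosis factor receptors, at 1.26 (SE 0.49, FDR 0.337 by edgeR). Irf1, an interferon-induced factor, was 1347, 1301 and 1406 against 829, 1674 and 902, for -0.23 (SE 0.34, FDR 0.813 by edgeR). Nfkb2, a subunit of NF-kB, lay at -0.39.

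Lta, the lymphotoxin of activated lymphocytes, had the highest log2 fold change of the 143 genes, 2.43 (SE 0.78, FDR 0.309 by edgeR). Its scaled counts were 53.3, 27.6 and 16.6 in the controls and 396, 41.0 and 193 with the combination. The value rests on the shallow lanes, where Lta had 11 raw counts (95% Poisson interval 5.49 to 19.7) against a background of 9.94 in mouse 1 and 16 against 12.4 in mouse 3. In ANT008+aPD-1 mouse 2, whose depth was like that of Scram+IgG mouse 2, Lta lay inside the control range, and with that lane alone the log2 fold change was 0.33.

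The T cell effector list held 11 of 20 genes, all above 0 between 0.58 and 1.65. The median log2 fold change was 0.77 and no gene passed the test. All 11 were also above 0 under TMM scaling and under scaling by the 143 genes. Neither scaling undoes the membership rule, which kept each gene above a scaled count of 358 in ANT008+aPD-1 mouse 1. Ccl4 in control mice 2 and 3 lay far below that, so the shared sign gives no direction. Gzma, a granule protease of cytotoxic lymphocytes, was 862, 335 and 515 in the controls and 1189, 1292 and 2346 with the combination. All 3 combination mice were above all controls, for 1.50 (SE 0.66, FDR 0.375 by edgeR). Tnf was 175, 48.6 and 75.4 against 360, 205 and 289, for 1.44 (SE 0.52, FDR 0.323 by edgeR), and 1.03 with combination mouse 2 alone. Tnf had 10 raw counts in combination mouse 1, where the background was 9.94, and 24 in mouse 3, so its place above the controls in mouse 1 was set by the membership rule. Ccl4, which attracts T cells and monocytes, was 365, 21.9 and 37.4 against 541, 519 and 289, for 1.65 (SE 0.89, FDR 0.458 by edgeR). Control mouse 1 lay between the combination mice, and the other controls were far below the lowest of them.

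Nkg7, a granule protein and the effector gene with the highest mean scaled count, showed the same arrangement. It was 2849, 592 and 607 in the controls and 1874, 1999 and 3044 with the combination, at 0.77 (SE 0.64, FDR 0.612 by edgeR). The mean log2 scaled count of the 11 genes was 9.77, 7.01 and 7.50 in Scram+IgG mice 1 to 3 and 9.51, 9.69 and 9.60 in the combination mice. The 12 T cell receptor and co-receptor genes, among them Cd28 at 2.13 (SE 0.62, FDR 0.309 by edgeR), were likewise all above 0, with a median of 0.98. For 4 of these 12 genes, all controls lay below the scaled background of ANT008+aPD-1 mouse 1, so the membership rule held that mouse above the controls. For others, such as Cd28 and Cd3d, it held that mouse above control mice 2 and 3. Of the 9 T cell markers summed above, 7 are genes of this receptor list. The other 2 markers, which are not among the 143 genes, summed to 890, 117 and 108 in the controls and to 469, 628 and 602 with the combination, with neither above background in combination mouse 1. In that sum too, control mouse 1 stood far above the other controls, and the part of T cell content in these values was not tested.

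**Figure D3:**
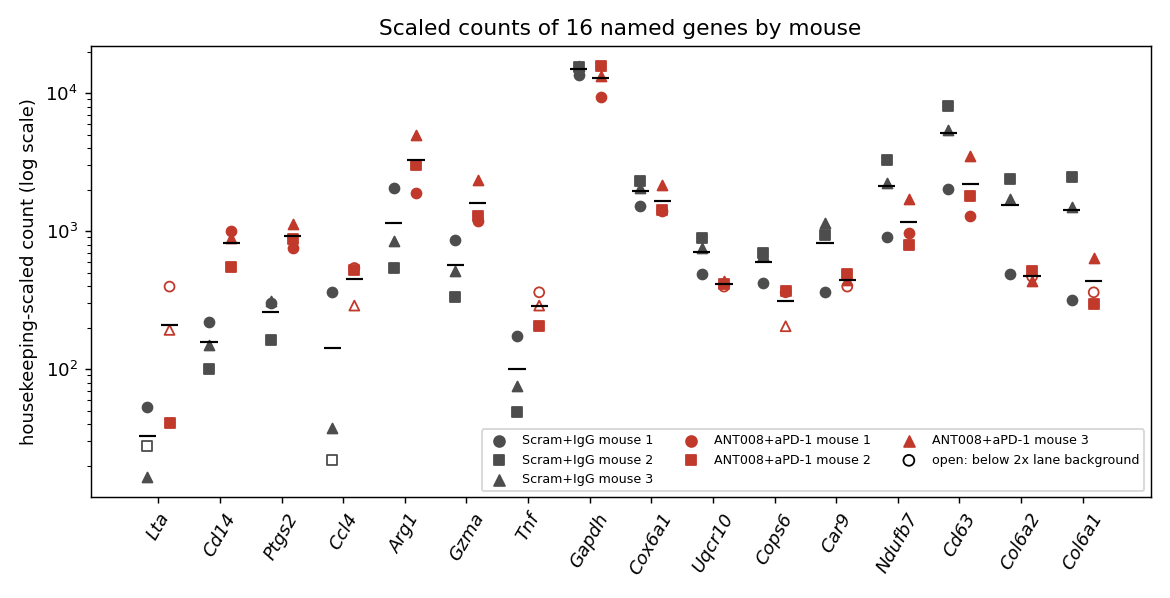
Housekeeping-scaled count (log scale) of 16 named genes in each of the 3 Scram+IgG mice (grey) and 3 ANT008+aPD-1 mice (red), with a shape for each mouse number, open symbols for counts below 2 times the background of the lane and bars at the group means. Cd14 runs from 100 to 221 in the controls and from 551 to 1009 with the combination, while Lta rests on open symbols in combination mice 1 and 3, and Gapdh overlaps.

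The lowest fitted values belonged to genes of collagen VI, a matrix protein made by fibroblasts and tumor stroma, and to Cd63, a tetraspanin of late endosomes and exosomes. None passed the test. The 100-base probe targets of the pair of collagen VI genes are shown because related chains could share signal. The capitals mark the longest run that the targets have in common, 7 bases.
Col6a1: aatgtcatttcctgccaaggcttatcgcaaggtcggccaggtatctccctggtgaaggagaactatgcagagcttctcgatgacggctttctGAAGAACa
Col6a2: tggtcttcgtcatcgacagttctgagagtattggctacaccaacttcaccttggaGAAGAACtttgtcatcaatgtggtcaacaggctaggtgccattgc
Col6a1 was 317, 2481 and 1498 in the controls and 360, 298 and 638 with the combination, a log2 fold change of -1.73 (SE 0.96, FDR 0.458 by edgeR). Col6a2 was 489, 2404 and 1722 against 469, 514 and 433, for -1.70 (SE 0.63, FDR 0.323 by edgeR). For both, control mouse 1 lay among the combination mice and control mice 2 and 3 well above them. In ANT008+aPD-1 mouse 1, Col6a1 had 10 raw counts and Col6a2 13, against a background of 9.94.

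Col6a2 passed the FDR of 0.1 by DESeq2 (0.0619) and when Scram+IgG mouse 1 was left out (log2 fold change -2.12, FDR 0.0482 by edgeR). The stroma markers Col6a3, Pdgfrb and Thbs1, none of them among the 143 genes, summed to 359, 868 and 993 in the controls and to 685, 698 and 529 with the combination, with none of the 3 above background in combination mouse 1. Col6a3 is itself a collagen VI gene and gave most of that sum, with 1532, 847 and 5574 raw counts in control mice 1 to 3. Thbs1 had 602, 56 and 687 raw counts there, and Pdgfrb 71, 9 and 85. The sum therefore does not stand apart from Col6a1 and Col6a2, and the part of stromal RNA in the difference was not tested. Cd63 was 2029, 8128 and 5371 against 1298, 1785 and 3490, for -1.23 (SE 0.68, FDR 0.458 by edgeR), with combination mouse 3 above control mouse 1.

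Cops6, a subunit of the COP9 signalosome, which regulates ubiquitin ligases, was 419, 692 and 673 in the controls and 360, 371 and 205 with the combination. Every combination mouse lay below every control, for -0.93 (SE 0.35, FDR 0.336 by edgeR), and mouse 2 as the only combination lane gave -0.68. Its 10 counts in ANT008+aPD-1 mouse 1 put it just inside the membership threshold, so the scaled count of 360 there is close to the scaled background of 358.

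The 4 groups put these levels in context. The mean log2 scaled count of the glycolysis genes ran from 10.61 to 11.07 in Scram+IgG, from 10.50 to 11.57 in ANT008+IgG, from 10.83 to 12.03 in Scram+aPD-1 and from 10.39 to 11.16 in ANT008+aPD-1. That of the respiratory genes ran from 9.43 to 10.24, from 9.06 to 10.74, from 9.26 to 10.81 and from 9.15 to 10.25 in the same order. For both lists the ranges of the 4 groups overlapped. The effector genes ran from 7.01 to 9.77, from 7.91 to 9.04, from 8.16 to 9.33 and from 9.51 to 9.69. The combination mice were closest together and Scram+IgG mouse 1 stood above each of them. The membership rule kept every gene above a scaled count of 358 in combination mouse 1 and of 149 in mouse 3. It set no floor in the single-agent lanes, so the closeness of the combination mice is partly set by the rule.

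Among the lists, the 3 combination mice lay above the 3 controls in their mean log2 scaled count for the Toll-like receptor and NF-kB genes (9.46 ± 0.17 SD against 8.70 ± 0.19 SD) and for the antioxidant genes (9.40 ± 0.05 SD against 9.18 ± 0.07 SD). No other list separated the groups in these means. For 2 of the 4 genes of the first list (Cd14 and Traf1) and 2 of the 6 of the second (Nfe2l2 and Hmox1), all controls lay below the scaled background of ANT008+aPD-1 mouse 1, so the membership rule held that mouse above the controls in those genes. The median log2 fold change of the antioxidant list turned to -0.14 under scaling by the 143 genes.

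**Figure D4:**
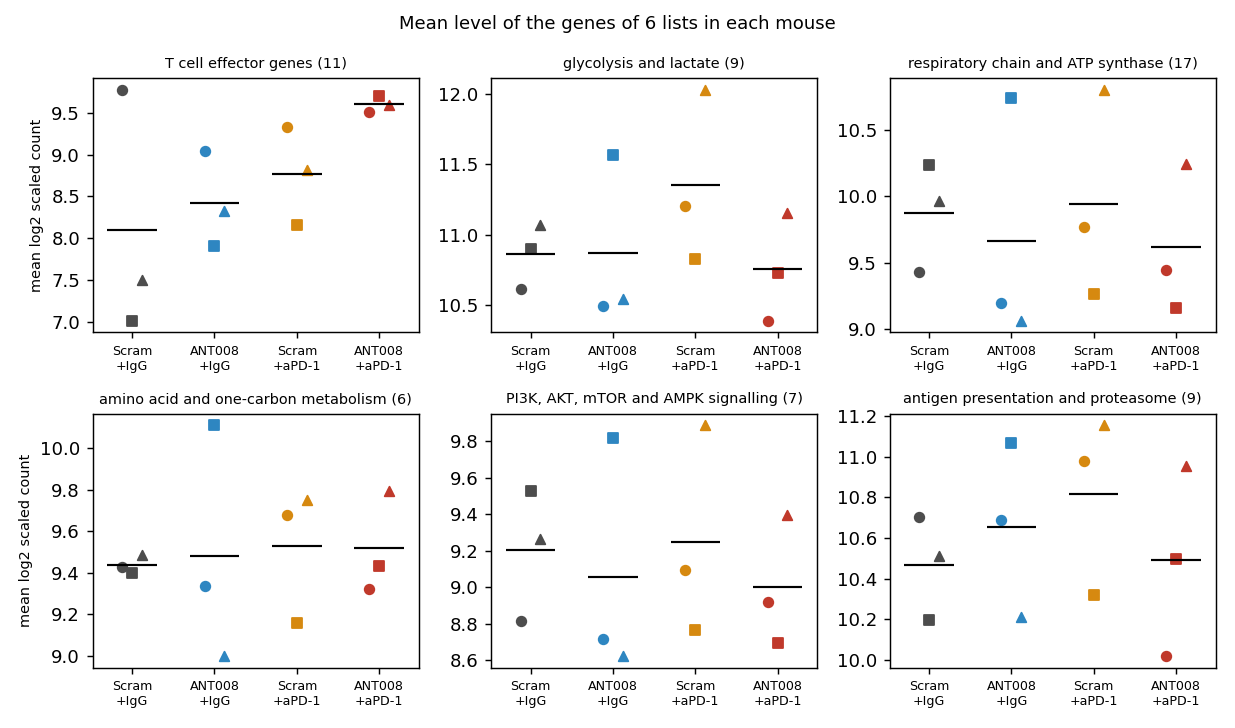
Mean log2 scaled count over the genes of 6 lists (number of genes in brackets) in each of the 12 mice, with 1 column per group, a shape for each mouse number and a bar at the group mean; the vertical scales differ between panels and do not start at 0. The effector genes lie between 9.51 and 9.69 in the combination mice and between 7.01 and 9.77 in the controls, and the glycolysis, respiratory, amino acid, PI3K and antigen presentation genes overlap between these groups.

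Which genes passed the test changed when single lanes were left out. Without Scram+IgG mouse 1, the control with the highest T cell marker sum and a flagged lane, 23 of the 143 genes were higher at an FDR below 0.1 by edgeR, against 10.6% of all tested genes, and 2 were lower, against 2.5%. Of the 23, 9 were T cell receptor and co-receptor genes and 8 effector genes, such as Ccl4 (log2 fold change 3.88, FDR 0.0210), Tnf (2.11, FDR 0.0347) and Nkg7 (1.95, FDR 0.0580). The other 6 were Cd14 (2.68, FDR 0.0347), Lta (3.00, FDR 0.0593), Traf1 (1.69, FDR 0.0677), Xcl1 (2.59, FDR 0.0347), Cd244a (1.55, FDR 0.0718) and Ctsw (1.67, FDR 0.0581). Xcl1 is a chemokine of cytotoxic lymphocytes, Cd244a a receptor and Ctsw a cathepsin of the same cells. For at least Ccl4, Tnf, Cd14, Lta and Traf1, both remaining controls lay below the scaled background of ANT008+aPD-1 mouse 1. The same held for at least Cd28, Cd3d, Cd3g, Cd247, Cd8b1 and Lck among the receptor genes. The membership rule thus held that mouse above those controls, and these calls are not independent of the rule. For Nkg7 the remaining controls, at 592 and 607, lay above that background of 358. The 2 lower genes were Col6a2 and Cops6 (-1.13, FDR 0.0892). No gene of the glycolysis, tricarboxylic acid cycle, respiratory chain, amino acid, nucleotide, fatty acid, antioxidant or PI3K lists was among them.

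Without ANT008+aPD-1 mouse 2, the only deep combination lane, 4 of the 143 genes were higher, Cd14, Cd28, Lta and Traf1, against 10.3% of all tested genes. None of the 143 was lower, against 0.312%. These 4 were also among the 23. For Cd14, Lta and Traf1, all controls lay below the scaled background of ANT008+aPD-1 mouse 1. For Cd28, control mice 2 and 3 did. Leaving out any of the other 4 mice gave 0 in both directions. The median log2 fold change of the 120 genes outside both T cell lists was -0.02 with all lanes and -0.10 without Scram+IgG mouse 1, while that of the effector list was 0.77 and 2.20. Without Scram+IgG mouse 2 the effector median was 0.34 and without Scram+IgG mouse 3 it was 0.42.

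Other tests of the same counts called other numbers of genes. DESeq2 called Cd14, Cd28 and Lta higher, 3 of the 143 genes against 4.38% of all tested genes, and Col6a2 lower, 1 gene against 0.312%. The voom test of limma, which weights lanes by their quality, called 33 of the 143 genes higher against 21.1%, among them Arg1 (log2 fold change 2.25, FDR 0.0561), Odc1 (0.81, FDR 0.0470) and Fabp5 (1.66, FDR 0.0302). It called Col6a2, Cops6 and Uqcr10 lower, 3 genes against 3.28%.

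**Figure D5:**
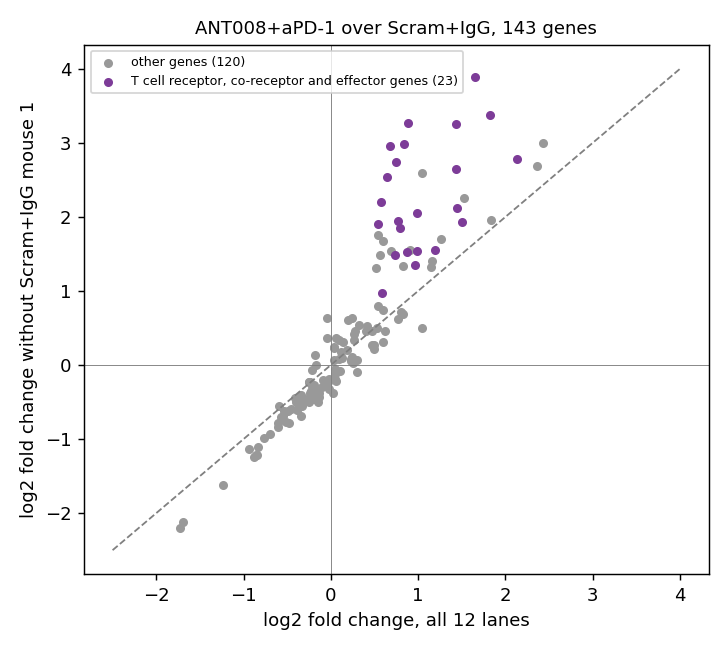
Fitted log2 fold change of ANT008+aPD-1 over Scram+IgG for the 143 genes with all 12 lanes (horizontal) and without Scram+IgG mouse 1 (vertical); the dashed line marks equal values and purple points are the 23 genes of both T cell lists. The purple points lie above the line, with the effector median at 0.77 on the horizontal and 2.20 on the vertical axis, while most of the 120 other genes stay near it.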

How the data were processed

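RNA of CD90.2-selected T cells from 12 tumors was hybridized to the nCounter Mouse Metabolic Pathways panel, 1 lane per mouse. The authors deposited whole-number raw counts per probe and lane, with nothing subtracted, scaled or pooled. How they normalized or tested single genes is not given in the sources used here. Mice were assigned to 4 groups of 3 by sample title, and each title matches 1 column name.

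The members and the gene lists were chosen with earlier results of these data known. All 143 member symbols were found in RefSeq (GRCm38.p6, used for names only). Probe targets were copied from the vendor's panel definition. Background was the mean plus 2 SD of 8 negative probes per lane, and lane size the geometric mean of the 3 of 20 housekeeping genes above background in all lanes. Genes were tested if they exceeded background in 3 or more lanes, which left 640, using edgeR 4.0.16 (quasi-likelihood, R 4.3.3) in 1 fit of the 4 groups without covariates, with Benjamini-Hochberg adjustment over the 640 genes and the study's FDR of 0.1, without the fold requirement that the study joined to it. The fit was tested on simulated data. All 143 members were tested. Intervals of counts are exact 95% Poisson intervals and cover counting error only. No single-gene permutation test was used, since 3 mice against 3 cannot give a p below 0.1.

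Genes named with full statistics were, outside the T cell receptor list, the 6 highest and the 6 lowest log2 fold changes, and for each list with at least 3 members the gene with the highest mean scaled count and that with the smallest unadjusted p. Other genes were named after their values were seen, because their groups did not overlap or to describe a list. A few genes are not reported here. Alternatives were TMM scaling, scaling by the members, DESeq2 1.42.0, limma 3.58.1 on log2(scaled count + 1) and with voom and sample weights, background subtraction, other gene filters, the 6 lanes alone, the replicate number as a block, and each mouse left out. Background subtraction with the lane size recomputed, and ANT008+aPD-1 mouse 2 as the only combination lane, were added after seeing the data.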

Additional observations from a re-analysis of the deposited data

How the results depend on the processing

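Depth limits low genes: 87 of the 143 genes stood below 2 times background in ANT008+aPD-1 mouse 1, where a gene at a lower level would not have been a member. The causes of the changes below were not tested.

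The count of the 143 genes called higher, 0 with the settings of the report, was 1 with TMM scaling, 1 with scaling by the members, 3 with DESeq2 (4.38% of all tested genes) and 33 with voom (21.1%). Called lower were 1 with DESeq2 (0.312%) and 3 with voom (3.28%). Over all tested genes, 2, 1, 28 and 135 were called higher in the same order, and 2 and 21 lower with DESeq2 and voom. Leaving out 1 mouse gave 0 to 23 members higher and 0 to 2 lower, and 0 to 68 and 0 to 16 tested genes. Non-overlapping members ranged from 8 to 45 above the controls and from 7 to 29 below them when 1 mouse was left out, with 16 and 21 above without ANT008+aPD-1 mice 1 and 2, 45 above and 29 below without Scram+IgG mouse 1, and 14 and 26 below without ANT008+aPD-1 mice 2 and 3. They were 13 below after background subtraction and 14 below with scaling by the members, which also moved the median of the members to -0.20. The same non-overlap counts were not made over all tested genes for these settings. With 1 mouse fewer, groups separate more easily, so these counts are no result about the members. Background subtraction moved the median of all tested genes to -0.39.

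Of 29 named genes, 20 kept their sign under all 18 alternatives. With ANT008+aPD-1 mouse 2 as the only combination lane, the log2 fold change turned to 0.068 for Gapdh, -1.02 for Nme2, -0.16 for Dck, 0.51 for H2-Aa and 0.31 for Irf1. Nme2 also turned with DESeq2 (-0.23), TMM (-0.27), background subtraction (-0.028), limma on log2 values (-0.12) and scaling by the members (-0.47), and Txn1 with DESeq2 (-0.066), TMM (-0.11), background subtraction (-0.0073) and scaling by the members (-0.24). H2-Aa turned with the lane size recomputed (0.062), limma on log2 values (0.10) and voom (0.20), and Sec13 with voom (0.11). With 1 mouse left out, the values ran from -0.36 to 0.0082 for Idh3g, from -0.43 to 0.065 for Pdha1, from -1.11 to 0.67 for Nme2, from -0.019 to 0.12 for Txn1, from -0.69 to 0.13 for Sec13 and from -0.42 to 0.63 for H2-Aa.

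Same-numbered mice of the groups were not the same animals. The deviations of same-numbered control and combination lanes from their group means correlated at -0.11, -0.33 and 0.005, so the numbers did not pair the mice. With the replicate number as a block, 0 members and 0 tested genes were called in either direction, the median of the members was 0.11, and H2-Aa turned to 0.22.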
